A study of Mus musculus with 6 samples.

Results

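The genes described here act in mitosis and in the G2 to M transition of the cell cycle. The set holds 54 mouse genes that were listed by name as mitotic kinases, spindle, kinetochore, condensin and cytokinesis genes, out of 56832 gene names in the deposited files. All 54 were found by symbol, and all 54 passed the filter on low counts, with 78 to 6758 counts in each library. The labels give the cells as mouse monocytes of peripheral blood, and their polyadenylated RNA was sequenced in 6 libraries with a strand-marking kit. The thrombocytopenic group (3 libraries) is listed as PF4cre-iDTR: Cre recombinase driven by the promoter of platelet factor 4 switches on an inducible diphtheria toxin receptor. The control group (3 libraries) is listed as WT, and diphtheria toxin is the listed treatment of both groups, so toxin exposure was shared while genotype and platelet state changed together and cannot be told apart. The sources used here do not give strain, age, sex, toxin dose or time, or whether a library came from 1 animal or from a pool.

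A cell that is about to divide makes a burst of RNA for the machinery of mitosis, and most of that RNA is lost again when the cell returns to G1. Cyclins A and B activate the kinase Cdk1, condensins compact the chromosomes, kinetochores attach them to the spindle, and the anaphase-promoting complex (APC/C), a ubiquitin ligase, releases the sister chromatids. Many promoters of these genes carry the cell cycle genes homology region (CHR), which is bound by the MuvB complex together with repressors in resting cells and with B-Myb and FoxM1 in dividing ones, and CCAAT boxes, which are bound by the factor NF-Y. Circulating monocytes divide little, so RNA of these genes in a monocyte preparation usually comes from a minority of cells. In bulk RNA, fewer cells in mitosis and less mitotic RNA per cell cannot be told apart.

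Promoter sequences are shown first because letters of the CHR recurred across the set. RefSeq promoter windows (build GRCm38.p6, 250 bases before to 50 after the annotated start, 300 in all) were matched by symbol for 44 of the 54 genes, in 46 windows. The lines below show the stretch from 150 bases before to 50 after the start, 5′ to 3′ on the strand of the gene. Capitals mark TTTGAA, the CHR motif, and CCAAT, each on either strand, so that CCAAT on the other strand reads ATTGG. The first 5 genes are those with the largest change in RNA among genes that hold both motifs in the window, and Pttg1 is the gene with the smallest change among those without TTTGAA. The genes begin, in order, with a spindle checkpoint protein (Bub1b), Polo-like kinase 1 (Plk1) and a kinetochore protein (Cenpf). They are followed by separase (Espl1), the centromeric histone H3 variant (Cenpa) and securin (Pttg1).
Bub1b (chr2:118598061-118598260, + strand): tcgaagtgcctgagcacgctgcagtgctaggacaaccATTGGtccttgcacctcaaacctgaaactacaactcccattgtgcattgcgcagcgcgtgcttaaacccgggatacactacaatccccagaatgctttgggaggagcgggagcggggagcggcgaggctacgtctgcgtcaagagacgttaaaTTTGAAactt
Plk1 (chr7:122159285-122159484, + strand): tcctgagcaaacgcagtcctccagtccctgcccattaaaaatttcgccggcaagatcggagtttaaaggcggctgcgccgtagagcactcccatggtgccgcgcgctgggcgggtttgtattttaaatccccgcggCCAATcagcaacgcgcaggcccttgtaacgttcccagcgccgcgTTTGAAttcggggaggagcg
Cenpf (chr1:189688037-189688236, - strand): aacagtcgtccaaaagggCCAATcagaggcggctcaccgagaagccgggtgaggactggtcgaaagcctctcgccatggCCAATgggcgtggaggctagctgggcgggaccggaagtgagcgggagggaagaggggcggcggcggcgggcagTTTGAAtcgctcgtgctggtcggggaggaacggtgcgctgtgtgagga
Espl1 (chr15:102296143-102296342, + strand): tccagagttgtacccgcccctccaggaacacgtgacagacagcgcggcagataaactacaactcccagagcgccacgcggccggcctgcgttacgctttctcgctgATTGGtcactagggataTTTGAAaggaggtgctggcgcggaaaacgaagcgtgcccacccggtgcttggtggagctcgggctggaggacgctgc
Cenpa (chr5:30666736-30666935, + strand): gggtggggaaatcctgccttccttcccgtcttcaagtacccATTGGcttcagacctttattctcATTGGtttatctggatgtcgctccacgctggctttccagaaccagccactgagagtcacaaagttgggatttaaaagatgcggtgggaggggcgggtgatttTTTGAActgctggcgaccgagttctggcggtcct
Pttg1 (chr11:43425932-43426131, - strand): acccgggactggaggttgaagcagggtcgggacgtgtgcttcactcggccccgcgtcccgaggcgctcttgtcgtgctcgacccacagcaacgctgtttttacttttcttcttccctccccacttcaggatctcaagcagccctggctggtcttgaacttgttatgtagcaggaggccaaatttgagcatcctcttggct

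In these lines the CHR motif lay close to the start, on either side of it, with CCAAT boxes before it, and the Pttg1 stretch held neither. Of the 46 windows of the set, 34 (73.9%) held TTTGAA, against 17.9% of all 32851 windows in the table and 12.4% of the 12005 windows of genes tested. CCAAT was found in 33 (71.7%), against 37.4% of all windows, and both motifs in 29 (63.0%), against 6.95%. Of the 44 genes with a window, 32 held TTTGAA. In 30 of the 44, a match began no more than 100 bases before the start or after it. Over all windows, with or without TTTGAA elsewhere, 8.01% held such a match. The motif TTTNNCGC, a binding sequence of E2F factors, was in 6 of the 46 windows, against 5.17% of all windows. In 43 windows of DNA replication and S-phase genes TTTNNCGC was found in 41.9%, TTTGAA in 14.0% and CCAAT in 60.5%. In 69 windows of further mitotic genes that are not in the set, TTTGAA was found in 47.8% and both TTTGAA and CCAAT in 31.9%. All motifs were searched on both strands, and TTTGAA and CCAAT matches overlapped each other in 1 window of the set. Only these exact letters were searched, so a CHR in another form or outside the window would be missed. A match describes the letters of the window and not binding by a factor, and the difference between lists was not tested.

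RNA of this set was lower in the thrombocytopenic libraries. Of the 54 genes, 51 were lower, by 1.17-fold to 1.73-fold, and none was higher at an adjusted p under 0.05 by edgeR's quasi-likelihood test. Over all 12488 genes tested, 22.7% were lower and 22.4% higher, 45.1% in either direction. The count of 0 higher genes was the same at an unadjusted p under 0.05 (0 genes), and DESeq2 and limma-voom called 0 as well. The 3 genes not past the threshold were Mybl2, Pttg1 and Smc4. The 3 thrombocytopenic libraries lay wholly below the 3 control libraries for 52 of the genes, against 26.1% of all genes tested. The falls were moderate, with 15 genes at least 1.5-fold lower (6.83% of all genes tested) and none 2-fold lower. The median log2 fold change was -0.52, with the middle of the set between -0.60 and -0.45 (25th and 75th percentiles), while the median over all genes tested was -0.00079.

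The same picture held library by library. In CPM (counts scaled to library size with TMM factors), the 54 genes summed to 1176, 1176 and 1219 in thrombocytopenic replicates 1, 2 and 3. They summed to 1622, 1584 and 1618 in control replicates 1, 2 and 3. The groups did not overlap, and the mean sum was 26.0% lower at 1190 ± 25.005 against 1608 ± 21.0 CPM (mean ± SD, n = 3 in each group). These genes took 0.117% to 0.122% of all counts in the thrombocytopenic libraries and 0.159% to 0.163% in the control libraries. Measured against the control means, the median gene stood at -0.54, -0.52 and -0.50 on the log2 scale in thrombocytopenic replicates 1, 2 and 3, so no single library carried the difference. Within the control group, replicate 2 had the lowest value of the 3 for 34 of the 54 genes, and within the thrombocytopenic group replicate 3 had the highest for 22. Libraries held 24842319 to 37552029 counts, and the labels do not tie them to separate animals. The p-values thus reflect library-to-library spread alone, and this spread may be technical. It was small, with correlations of 0.9975 to 0.9982 between libraries of a group on the log2 scale. The common coefficient of variation fitted by edgeR was 2.68%, so even slight changes reach a small p.

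**Figure D1:**
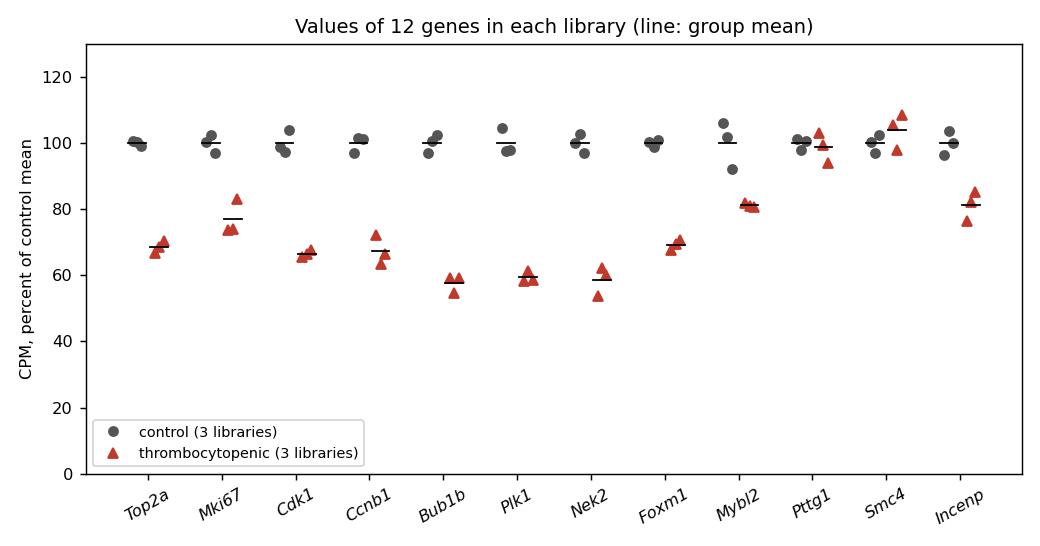
CPM of 12 genes in each library, as percent of the control mean of that gene (y axis); grey circles are the 3 control libraries, red triangles the 3 thrombocytopenic libraries, and lines the group means. Bub1b, Plk1 and Nek2 lie far below the controls, Mybl2 and Incenp lie nearer to them, and the groups overlap for Pttg1 and Smc4.

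The cyclins and their kinase, which start mitosis, were lower in all 5 genes. Cdk1, the kinase of mitotic entry, was at 20.6, 20.9 and 21.2 CPM in the thrombocytopenic libraries and at 31.0, 30.6 and 32.6 CPM in the controls (log2 fold change -0.59, SE 0.053, adjusted p = 5.33e-14). The libraries of a group lay close together, with a wide gap between the groups. Ccnb1, its partner cyclin B1, was at 18.8, 16.5 and 17.3 CPM against 25.3, 26.4 and 26.3 CPM (-0.57, SE 0.058). Ccna2, cyclin A2, had the largest log2 fold change of the class, with 31.1, 29.4 and 30.5 CPM against 46.7, 44.8 and 48.8 CPM (-0.62, SE 0.047). Cdc25c, a phosphatase that activates Cdk1, had the smallest at 2.36, 2.61 and 2.60 CPM against 3.45, 3.94 and 3.59 CPM (-0.55, SE 0.14), so the class spanned a narrow range. Ccnb2, cyclin B2, lay within it at -0.62. Ccna2 shares 12.5% of its exon bases with Exosc9, which lies on the opposite strand, and Cdc25c shares 12.7% of its with Gm3550; whether strand was used in counting is not given, which leaves such genes uncertain.

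The transcription factors of the set parted at the threshold. Foxm1, which activates late cell cycle genes, was at 9.45, 9.72 and 9.89 CPM against 14.0, 13.8 and 14.1 CPM (log2 fold change -0.53, SE 0.073, adjusted p = 1.97e-08). Mybl2, the gene of B-Myb, which is itself known as an E2F target made from late G1, was at 2.95, 2.91 and 2.91 CPM against 3.82, 3.66 and 3.31 CPM. Every thrombocytopenic library lay below every control library of Mybl2, yet its log2 fold change of -0.30 (95% interval -0.57 to -0.02) did not pass after adjustment (adjusted p = 0.0734, and 0.0526 to 0.179 over the other settings). Its interval holds the median of the set, so these data do not show that it changed less than the other genes.

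Mitotic kinases held some of the larger falls, and all 5 of this class were lower. Nek2, a centrosome kinase, was at 4.66, 5.39 and 5.20 CPM against 8.68, 8.91 and 8.40 CPM (log2 fold change -0.78, SE 0.097, adjusted p = 1.45e-09). Plk1, which acts from mitotic entry to cytokinesis, was at 12.2, 12.8 and 12.2 CPM against 21.8, 20.3 and 20.4 CPM (-0.75). Aurka, the Aurora kinase of spindle poles, fell by 0.60 on the log2 scale, and Ttk, the Mps1 kinase of the spindle checkpoint, by 0.63. Melk, a kinase of dividing and progenitor cells, changed least at 11.999, 10.8 and 11.9 CPM against 14.98, 13.7 and 14.8 CPM (-0.32, SE 0.071, adjusted p = 0.000166). Its 95% interval (-0.47 to -0.18) lay above the median of the set.

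The 4 genes of the chromosomal passenger complex, which corrects faulty attachments of chromosomes and then moves to the site of cleavage, were lower to unequal degrees. Aurkb, its kinase, was at 11.1, 11.8 and 9.98 CPM against 18.8, 18.0 and 17.4 CPM (log2 fold change -0.73, SE 0.070). Incenp, the scaffold that binds Aurkb, was at 50.3, 54.04 and 56.0 CPM against 63.3, 68.0 and 65.7 CPM (-0.30, SE 0.041, adjusted p = 1.5e-08). The intervals of kinase and scaffold did not meet, at -0.87 to -0.59 and -0.38 to -0.22. Birc5, survivin, and Cdca8, borealin, lay between them at -0.54 and -0.51.

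The spindle checkpoint genes, which hold back anaphase until all chromosomes are attached, were lower in 3 of 3 members but to very unequal degrees. Bub1b, the gene of BubR1, had the largest fall of the whole set at 17.6, 16.3 and 17.7 CPM against 28.9, 29.96 and 30.5 CPM (log2 fold change -0.79, SE 0.056, adjusted p = 8.16e-18), which is 1.73-fold lower. Mad2l1, which forms the inhibitor of Cdc20 with BubR1, had the smallest called change of the set at 23.5, 24.2 and 23.0 CPM against 27.1, 27.01 and 28.9 CPM (-0.23, SE 0.053, adjusted p = 0.000294). No Mad2l1 value of one group reached the other group. Bub1, a kinetochore kinase of the same pathway, was at -0.41.

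Of the genes that act at the exit from mitosis 3 of 4 were lower. Espl1, separase, the protease that cuts cohesin, was at 8.46, 8.98 and 8.69 CPM against 15.7, 13.4 and 13.9 CPM (log2 fold change -0.71, SE 0.077, adjusted p = 2.5e-11). Pttg1, securin, the inhibitor of separase, was at 47.9, 46.1 and 43.6 CPM against 47.0, 45.5 and 46.8 CPM. The Pttg1 libraries of the groups overlapped, with a log2 fold change of -0.02 (95% interval -0.10 to 0.07, adjusted p = 0.791), and its interval lay wholly above the median of the set. Cdc20, the activator of the APC/C, and Ube2c, its ubiquitin-conjugating enzyme, fell by 0.56 and 0.61 on the log2 scale. Ube2c shares 22.8% of its exon bases with Tnnc2 on the opposite strand, which had 0 counts in all libraries.

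Kinetochore and centromere genes were lower in 7 of 7 members. Cenpf, a large protein of the outer kinetochore made in G2, was at 6.94, 6.83 and 8.80 CPM against 11.9, 13.7 and 11.7 CPM (log2 fold change -0.73, SE 0.089, adjusted p = 2.57e-09). Ndc80, which gives its name to the complex that grips microtubules, was at 9.24, 9.85 and 9.50 CPM against 11.9, 12.3 and 12.9 CPM (-0.38, SE 0.076, adjusted p = 4.19e-05). The 4 subunits of that complex were all lower, with Nuf2 at -0.43, Spc25 at -0.49 and Spc24 at -0.53. Cenpa was at -0.67 and Cenpe, a kinesin of the kinetochore, at -0.50.

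Genes for the motors and assembly factors of the spindle were all lower. Among spindle kinesins 6 of 6 were lower, from Kif18b at 5.95, 5.73 and 5.76 CPM against 10.6, 8.63 and 8.85 CPM (log2 fold change -0.67, SE 0.095) to Kif4 at 16.4, 16.1 and 17.6 CPM against 23.9, 21.4 and 23.7 CPM (-0.45, SE 0.061). Kif11, the motor that pushes the spindle poles apart, was at -0.54, and Kif2c, which depolymerises microtubules at centromeres, at -0.62. Kif4 shares 15.1% of its exon bases with Pdzd11 on the opposite strand. Among assembly factors 4 of 4 were lower, from Tpx2, an activator of Aurora A, at 30.7, 30.7 and 32.4 CPM against 45.7, 44.1 and 44.7 CPM (-0.52, SE 0.046) to Nusap1, a microtubule-binding protein, at 19.1, 19.97 and 20.2 CPM against 25.7, 26.7 and 24.3 CPM (-0.37, SE 0.056). For all 4 of these genes the groups were separate in every library.

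Cytokinesis genes, which build the central spindle and the contractile ring, were lower in 7 of 7 members and within a narrow range. Prc1, which bundles microtubules of the central spindle and shares 11.1% of its exon bases with Rccd1, was at 23.9, 26.7 and 27.6 CPM against 37.6, 37.3 and 39.7 CPM (log2 fold change -0.55, SE 0.052, adjusted p = 2.26e-13). At the other end, Kif20b, a kinesin of the midbody, was at 10.3, 11.0 and 10.4 CPM against 13.9, 14.2 and 15.3 CPM (-0.46, SE 0.072). Anln, the gene of the ring scaffold anillin, and Ect2, which starts assembly of the ring, lay between them at -0.50 and -0.53. Kif20a shares 29.3% of its exon bases with the APC/C gene Cdc23 on the opposite strand; Kif20a was at -0.53, whereas the log2 fold change of Cdc23 was 0.09 (adjusted p = 0.105).

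Condensin genes split by subunit. Ncapg, a subunit of condensin I that shares 13.4% of its exon bases with Lcorl on the opposite strand, was at 10.1, 10.8 and 10.1 CPM against 15.9, 13.5 and 14.6 CPM (log2 fold change -0.50, SE 0.074, adjusted p = 1.23e-07), and Ncapd2 and Ncaph of the same complex were at -0.46 and -0.47. Smc2 and Smc4 form the ATPase pair that condensins I and II share. Smc2 was lower at 57.3, 53.0 and 59.6 CPM against 74.4, 69.5 and 77.7 CPM (-0.38, SE 0.042). Smc4 was at 114, 105 and 117 CPM against 108, 104 and 110 CPM (0.06, 95% interval -0.01 to 0.13), the only positive value of the set. Its adjusted p was 0.162, but without thrombocytopenic replicate 2 Smc4 passed as higher (log2 fold change 0.10, adjusted p = 0.0168; 0.0168 to 0.587 over all other settings). The intervals of the pair did not meet, at -0.46 to -0.29 for Smc2.

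RNA of both genes for proteins of the mitotic chromosome itself was lower. Top2a, topoisomerase II alpha, which untangles sister chromatids, was at 125, 128 and 132 CPM against 188, 188 and 185 CPM (log2 fold change -0.55, SE 0.030, adjusted p = 2.76e-22). Mki67, the gene of the proliferation marker Ki-67, which coats chromosomes, was at 125, 125 and 141 CPM against 170, 174 and 164 CPM (-0.38, SE 0.036, adjusted p = 4.38e-10). Mki67 fell less than Top2a, and their intervals (-0.45 to -0.30 and -0.61 to -0.49) did not meet.

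**Figure D2:**
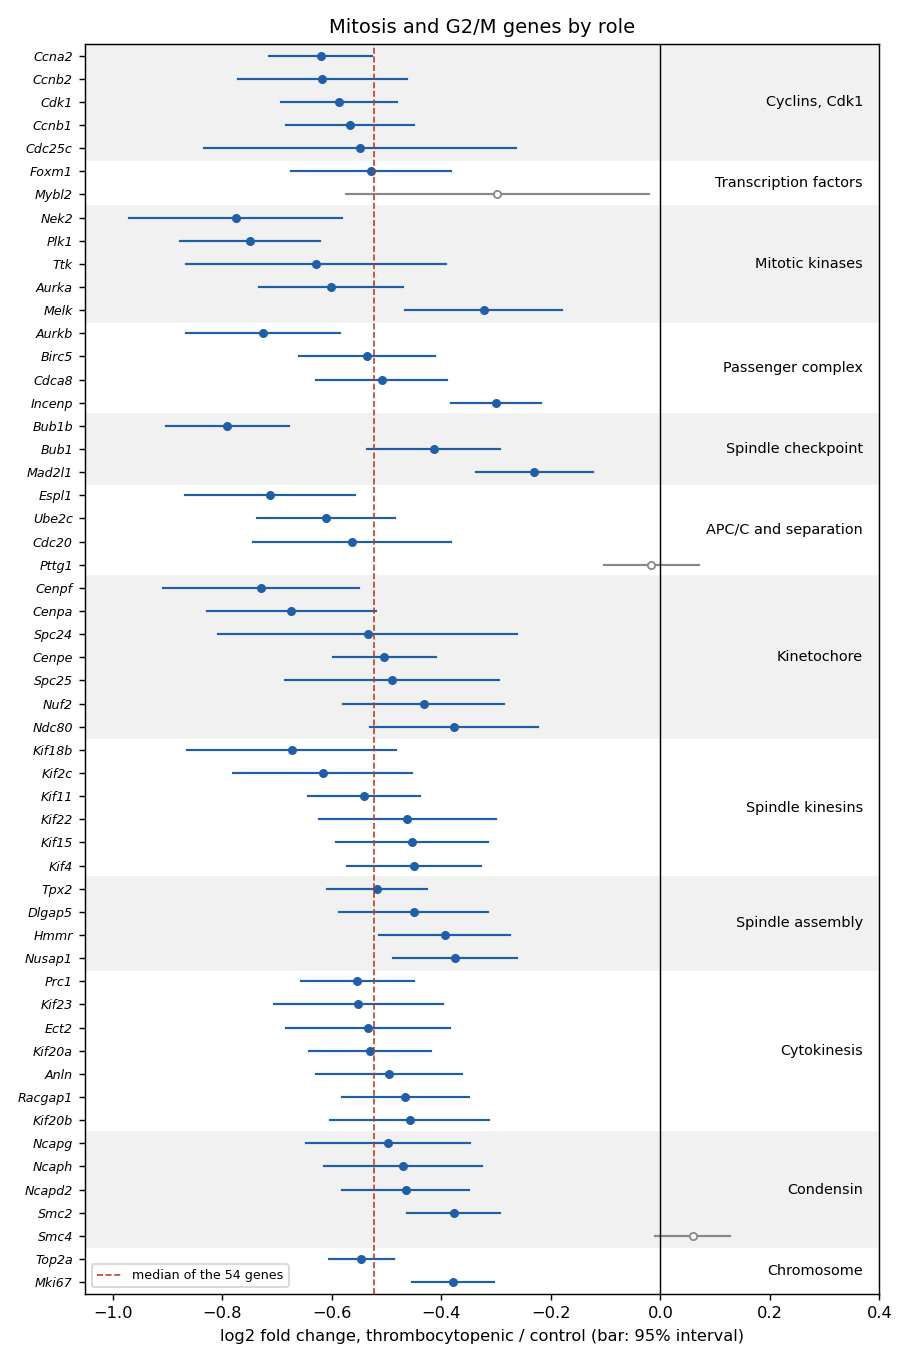
Log2 fold change (x axis, thrombocytopenic over control) of the 54 genes, grouped by role, with 95% intervals from edgeR; filled blue points passed at an adjusted p under 0.05, open grey points did not, and the dashed line is the median of the set, -0.52. The points run from Bub1b at -0.79 to Smc4 at 0.06, with Pttg1 and Smc4 next to 0 and apart from the rest.

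Most of the set lay near its median, but the changes were not all alike. The 95% interval of 38 of the 54 genes held the median of the set, 7 lay wholly below it and 9 wholly above, and 44 genes were within 0.2 of it on the log2 scale. The SD of the 54 log2 fold changes was 0.16, against a median SE of 0.066, so the changes differed by more than the typical SE. Genes with more counts tended to smaller falls (Pearson correlation 0.39, Spearman correlation 0.32 across the 54 genes, which share libraries and are not independent replicates). Genes with TTTGAA in the promoter window had a median log2 fold change of -0.54 (32 genes, -0.79 to -0.38), and all 32 were lower. The 12 genes with a window but without these letters had a median of -0.42 and ranged from -0.78 (Nek2) to -0.02 (Pttg1), with 10 lower. The 5 smallest changes among genes with a window, those of Pttg1, Mad2l1, Mybl2, Melk and Nusap1, were all in windows without TTTGAA, as were the larger changes of Nek2 and Ccnb1. This split is a description and was not tested.

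**Figure D3:**
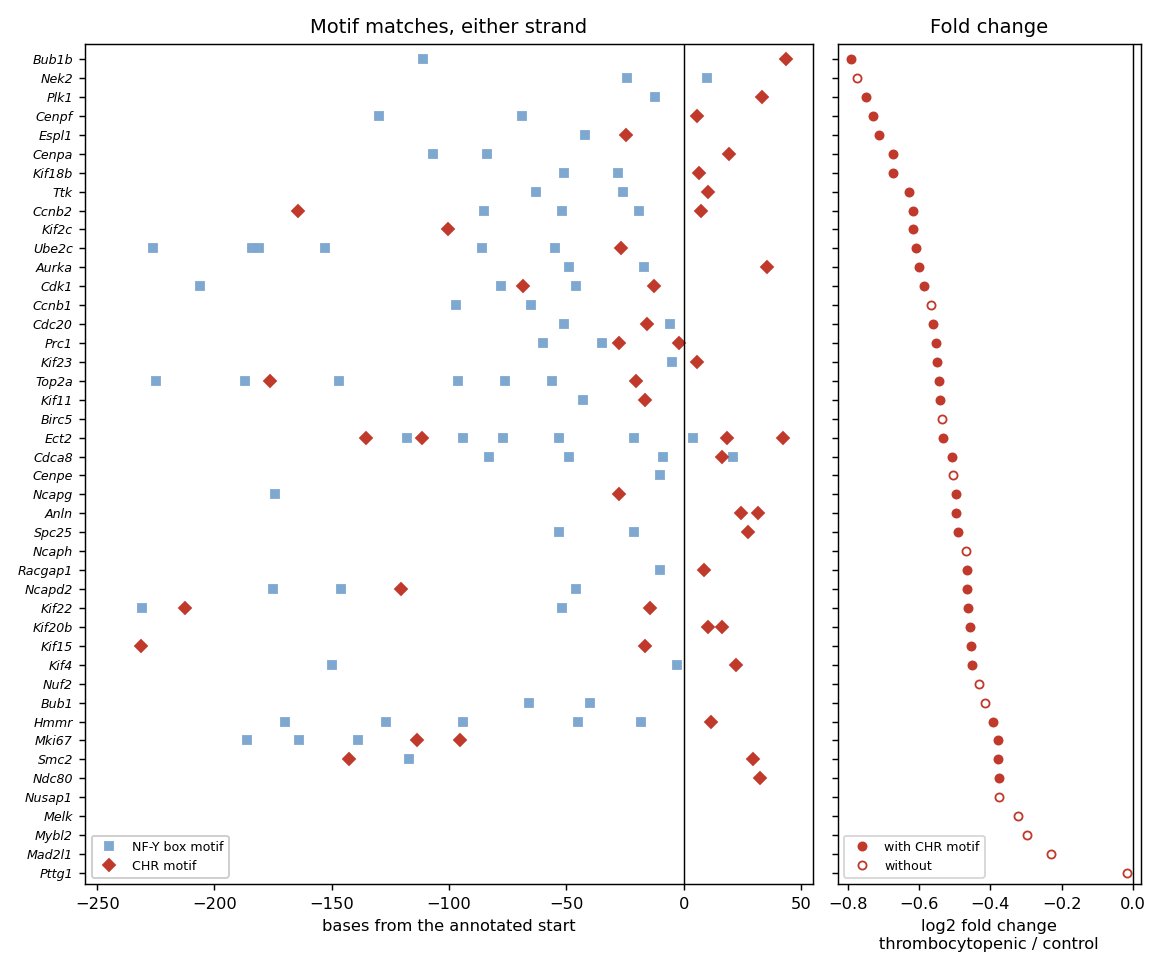
Left, position of CHR (red diamonds) and CCAAT box (blue squares, labelled by the factor NF-Y) matches on either strand in the promoter windows of 44 genes, in bases from the annotated start (x axis); Prc1 and Ect2 have 2 windows each, drawn together. Right, log2 fold change of the same genes, ordered from the largest fall to the smallest. Filled points are the 32 genes with TTTGAA in the window and open points the 12 without these letters.

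Other cell cycle genes gave a background for the set, beside the shares over all genes tested, 22.7% lower and 22.4% higher. Of 74 further mitotic genes, none of them in the set, 50 were lower and 4 higher, with a median log2 fold change of -0.41. Cdca3, a trigger of mitotic entry, was at 11.8 ± 0.861 CPM against 19.6 ± 0.807 CPM (-0.72), and Lmnb1, lamin B1, at -0.55. The 4 higher genes were Psrc1, Gtse1, Mis12 and Trip13. Psrc1 (0.71) and Gtse1 (0.36), both known as p53-responsive genes that bind microtubules, had the smallest p among these. DNA replication and S-phase genes were lower in 28 of 46 and higher in 2, Slbp (0.18) and Pola2 (0.17), with a median of -0.22. The count of 2 higher was 1 with DESeq2, with upper quartile scaling and without thrombocytopenic replicate 1 or 2 or control replicate 2 or 3. Mcm6, a subunit of the replicative helicase, was at -0.47 and Dnmt1, the maintenance DNA methyltransferase, at -0.50. Summed over each list, the S-phase genes were 16.7% lower and the 54 mitotic genes 26.0% lower, and the ratio of mitotic to S-phase CPM was 1.33, 1.33 and 1.37 in thrombocytopenic replicates 1, 2 and 3 against 1.53, 1.48 and 1.53 in the controls. This ratio, taken with the 54 genes, did not overlap between the groups. The 74 further mitotic genes summed to a mean of 1268.3 CPM in the thrombocytopenic and 1405.1 CPM in the control libraries. Their thrombocytopenic sum was 0.90263 of the control sum, against 0.8326 for the S-phase genes. By sum the further mitotic genes thus fell less than the S-phase genes, whereas by median they fell more (-0.41 against -0.22). Differences between the lists were not tested.

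Genes that act in mitosis but are also made outside it had medians near 0. Of 17 core genes of the APC/C and its regulators 2 were lower (11.8%) and 0 higher, with a median of -0.0098. Over all genes tested 22.7% were lower and 22.4% higher, so both shares were smaller here. The 2 lower genes were Fbxo5 (-0.44), an inhibitor of the complex that is made from late G1, and Anapc11 (-0.16). The count of 2 was 0 with DESeq2 and without control replicate 3, and 1 without thrombocytopenic replicate 1 or without thrombocytopenic replicate 3. Cohesin genes, whose complex holds sister chromatids and also shapes interphase chromatin, were higher in 6 of 11 (54.5%), with a median of 0.07. The 1 lower gene was Mau2 (-0.11), a share of 9.09% that is below that over all genes tested. Wapl, which releases cohesin, rose by 0.21 and Stag2 by 0.11 on the log2 scale. The count of 6 higher cohesin genes was 2 with DESeq2, with upper quartile scaling and when control replicate 1 or 3 was left out. It was 3 without thrombocytopenic replicate 1 or thrombocytopenic replicate 3. The count of 1 lower was 0 with DESeq2 and without thrombocytopenic replicate 1, thrombocytopenic replicate 3 or control replicate 3.

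Among G1 regulators and cell cycle brakes, which act upstream of mitosis, 14 of 33 tested were lower (42.4%) and 10 higher (30.3%). The shares over all genes tested were 22.7% and 22.4%. Ccnd1, cyclin D1, was lower at 9.79 ± 1.13 against 18.9 ± 1.34 CPM (log2 fold change -0.96, SE 0.074) and so was Ccnd2, cyclin D2, at 49.3 ± 1.27 against 76.2 ± 3.93 CPM (-0.62). Ccnd3, cyclin D3, rose by 0.30 on the log2 scale. Cdkn1a, the Cdk inhibitor p21, rose from 1394 ± 14.1 to 1908 ± 66.5 CPM (0.45, SE 0.024, adjusted p = 1.31e-22), and the antiproliferative gene Btg2 and the cyclin G1 gene Ccng1, both known p53 targets, rose by 0.78 and 0.57. The largest rise of the list was that of Gadd45a (1.13), while Gadd45b (-0.25) and Gadd45g (-0.60) were lower, and Sesn1 rose by 0.64. Other brakes were lower, among them the Cdk inhibitor Cdkn2c (-0.52), the pocket protein Rbl1 (-0.42) and the antiproliferative gene Btg1 (-0.33). Wee1 (-1.23), the kinase that inhibits Cdk1, was lower too, as was the p53 target Mdm2 (-0.12). Rb1, the retinoblastoma gene, rose by 0.25, and Cdkn1b, the inhibitor p27, was at 15.8 ± 0.850 CPM against 14.6 ± 0.872 CPM (0.12) and missed the threshold (adjusted p = 0.136, and 0.10 to 0.538 over the other settings). Of E2F, MuvB, Myc and NF-Y genes 4 of 21 tested were lower and 3 higher, smaller shares than over all genes tested (22.7% and 22.4%). E2f2 was at -1.31, Max at -0.29, Nfyb at 0.22 and E2f6 at 0.22. Myc was at 0.17 (adjusted p = 0.00754, and 0.0553 without control replicate 1; 0.00698 to 0.0553 over all other settings). E2f1 averaged 11.4 ± 0.747 CPM, next to 11.3 ± 0.639 CPM in the controls (adjusted p = 0.958).

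**Figure D4:**
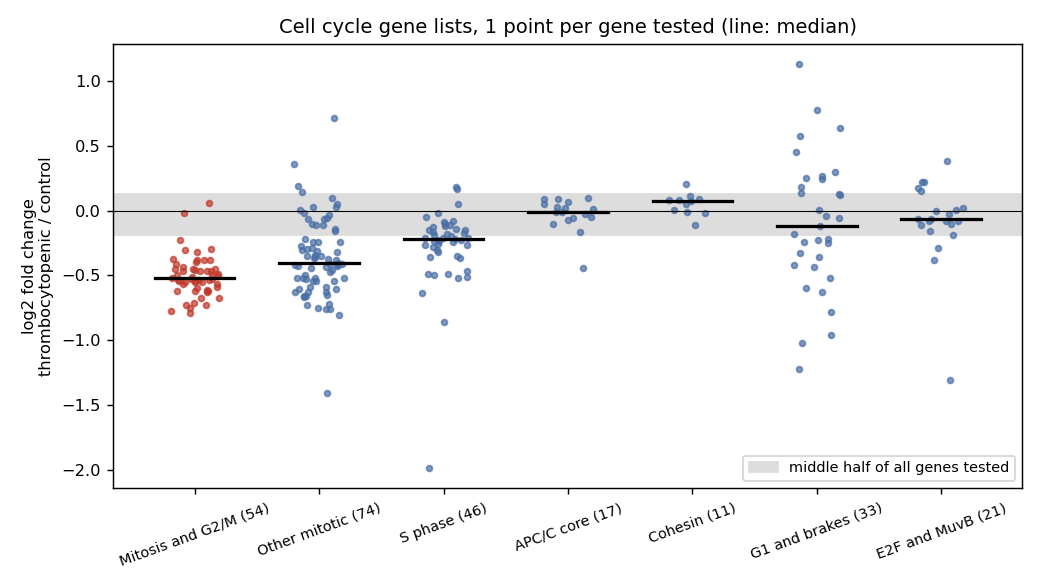
Log2 fold change (y axis, thrombocytopenic over control) of every tested gene of the mitotic set (red) and of 6 further cell cycle lists (blue), with the number of genes in brackets, the median as a line, and the 25th to 75th percentile of all genes tested as the grey band. The mitotic set lies below the band except for a few genes, the further mitotic and S-phase genes lie partly in it, and APC/C core and cohesin genes lie mostly within it.

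The labelled cell type and other cells that may divide were checked by marker lists. Over all genes tested, 22.7% were lower and 22.4% higher. All 20 monocyte markers passed the filter on low counts, with 7 lower and 9 higher. Their sum was 21525 to 21644 CPM in the thrombocytopenic and 19891 to 20479 CPM in the control libraries, most of it Lyz2. Without Lyz2 the monocyte sum was 7791 to 8019 CPM against 8131 to 8263 CPM. Without Lyz2 and Ctss it was 5970 to 6074 CPM against 5729 to 5761 CPM, so its direction depended on single genes. Macrophage markers were abundant as well, at 8649 to 8965 against 10588 to 10653 CPM, with 11 of 14 tested lower and 3 higher. Pf4, whose promoter drives the Cre, was itself at 1094 ± 38.8 CPM against 924 ± 23.4 CPM in the profiled cells. Markers of blood progenitors were mixed, with 6 of 9 tested members lower and 2 higher, Procr and Meis1. Their sum was 81.7 to 86.3 CPM against 72.2 to 76.8 CPM, most of it Procr, and without Procr it was 12.3 to 14.0 CPM against 18.8 to 21.6 CPM. Kit was at 1.27 ± 0.433 CPM against 2.84 ± 0.487 CPM and Cd34 at 2.32 ± 0.449 CPM against 3.89 ± 0.469 CPM, while Mecom had 0 counts in all libraries. Markers of dendritic cells were lower in 9 of 11 tested, with a sum of 372 to 381 CPM against 528 to 550 CPM.

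Markers of other blood cells held many genes at or near 0, and most of each sum came from 1 or 2 genes. In the list of neutrophil precursors 2 of 8 tested were lower and 2 higher, shares near those over all genes tested (22.7% and 22.4%). Their sum was 122 to 125 CPM against 97.6 to 104 CPM, and without Lcn2, its most abundant gene, 38.9 to 43.7 CPM against 48.9 to 51.6 CPM. Elane, neutrophil elastase, had 0 counts in every thrombocytopenic library and 0, 2 and 0 in the controls, and Mpo, the myeloperoxidase gene, had 0, 0 and 1 against 0, 7 and 2. Among erythroid markers, Alas2 and Slc4a1 had 0 counts in all libraries; 2 of 4 tested were lower, among them Hba-a1, a globin gene with 0 counts in every thrombocytopenic library, and the sum, nearly all Tfrc, was 140 to 150 CPM against 138 to 145 CPM. B cell markers were lower in 2 of 5 tested and higher in 1, with a sum of 101 to 114 CPM against 185 to 191 CPM, most of it Blnk. Without Blnk the B cell sum was 14.9 to 17.0 CPM against 16.8 to 18.5 CPM, and the groups overlapped. Without Blnk and Ighm it was 2.81 to 3.19 CPM against 6.66 to 7.27 CPM. T and NK cell markers summed to 1.29 to 1.98 CPM against 2.61 to 3.08 CPM, with 2 of 4 tested lower and Cd3e, Cd3d and Cd3g at 0 in all libraries. Platelet and megakaryocyte markers were lower in 6 of 9 tested and higher in 2, with a sum of 1227 to 1299 CPM against 1019 to 1066 CPM. The 2 higher genes, Pf4 and Ppbp, made up nearly all of that sum, and the rest of the list summed to 7.002 to 8.08 CPM against 16.7 to 19.1 CPM. Basophil and mast cell markers were lower in 5 of 7 tested, with a sum of 92.9 to 98.1 CPM against 99.0 to 101 CPM and Cma1 and Tpsb2 at 0 in all libraries. Nearly all of that sum was Hdc, which did not pass the test; without it the sum was 0.723 to 0.950 CPM against 7.59 to 9.27 CPM, and the basophil protease gene Mcpt8 was at 0.118 ± 0.0586 CPM against 2.26 ± 0.272 CPM. The part of any of these cells in the lower mitotic RNA was not tested.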

How the data were processed

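Polyadenylated RNA of mouse blood monocytes was sequenced in 6 libraries, 3 per group, and the authors deposited raw read counts per gene symbol for each. The submitters' processing notes list, without role or order, Salmon 1.5.2, featureCounts, Subread 2.0.1, STAR 2.7.9a and fastp 0.23.1. The kit marks strand, per the labels' protocols, but the strand setting of the counting, the build and the annotation are not stated in the sources used here, so reads of overlapping genes on opposite strands may be shared.

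The 6 deposited count tables were joined (56832 genes, of which 34221 had no count) and filtered with edgeR's filterByExpr (minimum count 10, minimum total 15), which left 12488 genes. edgeR 4.0.16 in R 4.3.3 fitted a quasi-likelihood model with TMM scaling and group as the only term, and calls used a Benjamini-Hochberg adjusted p under 0.05 over all genes tested. The SE is the log2 fold change divided by the root of the test's F value, and intervals are at 95%. DESeq2 1.42.0, limma-voom (limma 3.58.1), other scalings and filters, a replicate block and leaving out each library were alternatives. Libraries held 24842319 to 37552029 counts. The scripts were tested on simulated data. No test was made over the set or over lists, which are described by counts and medians. The members and all lists were chosen with earlier results of these data known. Genes named in the text were the largest and the smallest change of each role class and the members not past the threshold. Cdk1, Ccnb1, Foxm1, Top2a and Mki67 were also named. In further lists, those of smallest p in each direction were named, with some regulators listed by name. Added after their values were seen were other members named by their fold change, the overlapping genes and single markers. So were Plk1, Smc2, Mis12, Trip13, Cdkn2c, Rbl1, Btg1, Wee1, Mdm2, Gadd45a, Gadd45b, Gadd45g and Sesn1. Promoter windows came from RefSeq (GRCm38.p6) by symbol; Incenp, Smc4, Ccna2, Foxm1, Spc24, Tpx2, Aurkb, Kif20a, Cdc25c and Dlgap5 had no entry. GENCODE M21 was used only to find genes that overlap members.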

Additional observations from a re-analysis of the deposited data

How the results depend on the processing

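All 51 genes lower in the main analysis were lower past the threshold in each other fit in which they were tested, and 51 to 51 were lower when 1 library was left out; a filter of 5 CPM left some untested. A demand for at least a 1.5-fold change reduced the count to 15. The count of higher genes ran from 0 to 1 over fits without 1 library, the 1 being Smc4. The median log2 fold change of the set was -0.5466 with upper quartile scaling, which also moved the median of all genes tested, and ran from -0.54648 to -0.49965 when 1 library was left out. Values that changed sign were all near 0 and none passed the threshold in either direction. Pttg1 ran from -0.05009 to 0.020785 when 1 library was left out, with the positive value without thrombocytopenic replicate 3. E2f1 was at -0.017532 with upper quartile scaling, at -0.0075258 with a filter of 5 CPM, and from -0.045755 to 0.063761 when 1 library was left out, below 0 without thrombocytopenic replicate 2, thrombocytopenic replicate 3 or control replicate 2. The median of the APC/C core genes was -0.033673 with upper quartile scaling and ran from -0.020704 to 0.00055399 when 1 library was left out, above 0 without control replicate 3. The cause of these shifts was not tested. Deviations of same-numbered libraries correlated at -0.044, -0.118 and -0.030, and those of differently numbered libraries at -0.071 to 0.105. These values gave no sign of pairing by replicate number, but with 3 libraries per group they cannot exclude it. With the replicate number as a block, 51 genes were lower, 0 higher and the median was -0.52002. The depth limits the genes of lowest count, such as Mybl2, Cdc25c and Spc24, whose SE was about 0.14.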
